A study of Mus musculus with 8 samples.

Results

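The genes described here are the mouse zinc finger protein genes named Zfp followed by a number, as they were expressed in tissue-resident macrophages sorted from the lung. A gene was taken if its symbol was Zfp, digits and at most 1 further letter, and if its deposited scaled CPM (counts scaled to the size of the library) was at least 3 in each of the 8 libraries. Members were thus selected on their measured level. Of 338 Zfp genes among the 12701 genes of the deposited table, 240 met that rule, and all 240 were annotated as protein coding. The rule used the measured levels in every library, so the level of a member is a description and no finding. Just inside the minimum lay Zfp775, Zfp58 and Zfp40, each with a lowest library of 3.05, and just outside lay Zfp808 and Zfp438 at 2.97 and Zfp763 at 2.93. Because a gene below 3 in any library was left out, the rule also removed Zfp genes that fell out of range in 1 group. There were 18 Zfp genes with at least 3 in every naive library and less than 3 in a library of a tumor group, and 11 with at least 3 in all naive and d15 libraries and less than 3 in a d35 library. In the other direction, 13 had at least 3 in both d15 libraries and 6 in all 3 d35 libraries while a naive library was below 3.

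Total RNA was sequenced from 20000 flow-sorted tissue-resident macrophages per library, which the labels also call alveolar macrophages, of C57BL/6 mice. The 3 naive libraries came from mice without tumors. The 2 d15 and 3 d35 libraries came from mice injected through the tail vein with KP or KP-GFP tumor cells, 15 and 35 days earlier. The labels do not spell out KP and do not say which libraries had the GFP-marked cells. The protocol text gives a harvest window that ends before day 35, so the later time is known only from the sample labels. The labels do not say whether libraries of a group came from separate mice, and p-values then measure only the spread between these libraries, which may be technical. The d15 columns of the table carry other numbers than the d15 sample titles, and these 2 libraries are called A and B. The series title names the tumor-promoting role of these macrophages as its subject, and the comparisons below ask how the Zfp genes differed between naive lungs, the early time and the late time.

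Most Zfp proteins hold C2H2 zinc fingers, in which a pair of cysteines and a pair of histidines grip a zinc ion, and strings of such fingers read DNA. A large class also carries a KRAB box, which recruits the co-repressor TRIM28 and through it the histone methyltransferase SETDB1, and many of its members silence retroelements. KRAB zinc finger genes arose by tandem duplication and sit in clusters of near relatives. Other proteins with the Zfp name have no part in that system. Zfp36, or tristetraprolin, carries CCCH fingers and speeds the decay of mRNAs with AU-rich elements, among them cytokine mRNAs, which makes it a brake on inflammation in macrophages.

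The deposited values could be turned back into whole reads, 27465745 to 39572173 per library, and the values below are the deposited ones in scaled CPM. The member with the fewest reads in any library still had 87. All 12 alveolar macrophage markers checked, such as Siglecf, Chil3, Car4 and Mrc1, were present in every library. Their summed level was 67308 to 72372 in naive, 86621 to 86732 in d15 and 92417 to 114961 in d35 libraries. Of the 12, 2 were called higher and 0 lower at d15 against naive. At d35 against naive 3 were higher and 1 lower, and at d35 against d15 1 was higher and 1 lower. Markers of monocytes and interstitial macrophages were low but moved with the late time: the sum of 6 was 20.3 to 25.4 in naive, 25.6 to 32.7 in d15 and 106 to 369 in d35 libraries, and 4 of the 6, Ccr2, C1qa, C1qb and C1qc, were higher at d35 than in naive libraries. Endothelial markers moved the other way, with a sum over 8 genes of 257 to 314 in naive, 175 to 200 in d15 and 159 to 203 in d35 libraries and 7 of 8 called lower at d35 against naive. B cell markers were low throughout, with a sum over 4 genes of 10.4 to 15.5 in naive, 5.22 to 5.64 in d15 and 3.78 to 6.93 in d35 libraries, and 3 of them were lower at d35. Of 6 epithelial genes, with sums of 1400 to 1440 in naive, 1228 to 1349 in d15 and 1201 to 1324 in d35 libraries, 2 were higher and 1 lower at d35 against naive. Of 5 fibroblast genes tested 1 was lower, with sums of 10.6 to 30.1 in naive, 5.50 to 8.72 in d15 and 6.82 to 13.95 in d35 libraries, and Lum was at 0 reads in a library. Of 4 neutrophil genes 1 was higher, with sums of 68.8 to 86.8, 64.2 to 83.3 and 49.6 to 94.1, and S100a9 was at 0 reads in a library. Sums of 5 T cell genes were 1.63 to 4.90 over all libraries. No monocyte, endothelial or B cell marker was at 0 reads in a library. What part these other cell types had in the Zfp values below was not tested. In sorted bulk RNA, fewer cells of a type and less RNA per cell cannot be told apart.

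Zfp36 was the most abundant member by far. Its level per kilobase of transcript, the scale on which genes can be compared, averaged 319 over the 8 libraries. The next were Zfp207 at 68.6, a microtubule-binding protein of the mitotic spindle also called BuGZ, Zfp706 at 57.5, Zfp385a at 22.5 and Zfp809 at 20.6. The median member stood at 4.18, and the lowest were Zfp516 at 0.543, Zfp846 at 0.653 and Zfp563 at 0.673. Zfp706, a small protein with a single finger, had a mean level of 249 ± 11.6 in naive, 274 ± 3.32 in d15 and 247 ± 17.4 in d35 libraries (SD, n = 3, 2 and 3). Together the 240 genes took 0.630% to 0.665% of the table's total in naive, 0.634% to 0.638% in d15 and 0.513% to 0.595% in d35 libraries. Without Zfp36 those shares were 0.530% to 0.573%, 0.536% to 0.543% and 0.470% to 0.513%, so the d35 libraries were the lowest with or without it.

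Zfp36 (chromosome 7, 28376784 to 28380253, GRCm38) spread widely within groups. It stood at 544, 1286 and 1196 in the naive libraries, 954 and 974 at d15 and 462, 604 and 1111 at d35. The low naive library and the low d35 libraries lay well under the others of their own groups, and the 3 groups overlapped. Its log2 difference was 0.03 ± 0.38 (SE), adjusted p = 0.97 for d15 against naive and -0.48 ± 0.34 (SE), adjusted p = 0.357 for d35 against naive, with a direction at d15 that turned with the processing. Zfp36 is itself an immediate-early gene, switched on within minutes of stimulation or of tissue handling, and 11 other genes of that kind, such as Fos, Jun, Egr1 and Ier2, were summed beside it. Their summed level was 3938, 8389 and 7967 in naive, 7069 and 8798 in d15 and 2740, 4479 and 6572 in d35 libraries, in the same library order as above. The 3 libraries with the lowest Zfp36, naive 1, d35 1 and d35 2, were also the 3 with the lowest sum. The part of handling in the Zfp36 level was not tested.

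**Figure D1:**
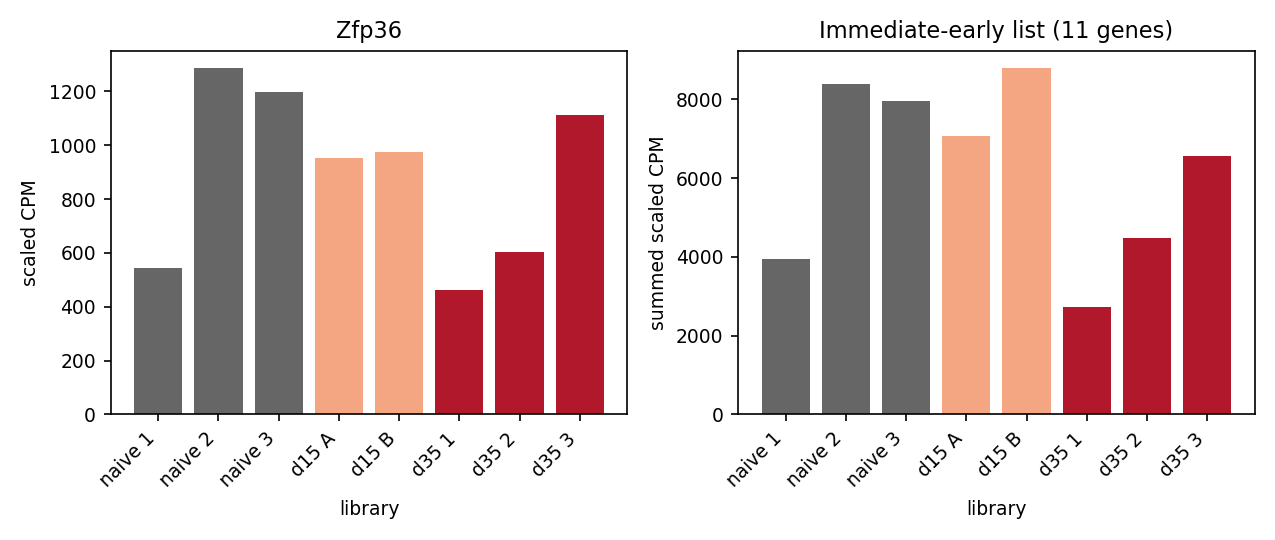
Bars of the level of Zfp36 (left) and of the summed level of 11 immediate-early genes (right) in each of the 8 libraries, both in scaled CPM and coloured by group. Naive 1, d35 1 and d35 2 have the lowest bars in both panels, and the groups overlap.

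At day 15 only Zfp658 and Zfp24 of the 240 genes differed from naive macrophages past the test, both higher, which is 0.833% of members beside 4.37% of all 11273 genes tested (2.37% higher and 2.0% lower). A call here is an adjusted p of limma under 0.05, corrected over all genes tested, on log2(value + 1). At an unadjusted p under 0.05 there were 19 members higher and 19 lower, beside 1612 and 1342 of the 11273 genes. The quasi-likelihood test of edgeR on the recovered reads called 2 members higher and 0 lower, beside 215 and 202 of all genes. DESeq2 called 5 members higher and 9 lower, beside 686 and 765 of all genes. The median log2 difference was 0.087 over the members and 0.012 over all genes, and 148 of the 240 were above 0.

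Zfp658, whose human counterpart is known as a zinc-responsive regulator of zinc transporter genes, had the largest difference. It stood at 11.4, 8.11 and 10.3 in naive libraries, 18.4 and 22.6 at d15 and 15.2, 16.7 and 12.8 at d35. Every d15 library was above every d35 library, and every d35 library above every naive one. The means were 9.93 ± 1.66, 20.5 ± 2.92 and 14.9 ± 1.98 (SD), and the log2 difference of d15 against naive was 0.98 ± 0.17 (SE), adjusted p = 0.0162. The gene lies on chromosome 7 from 43562256 to 43575461. Zfp24, a SCAN-domain transcription factor needed for myelination in the brain, stood at 33.7, 32.2 and 39.7 in naive, 47.4 and 49.6 at d15 and 37.2, 39.5 and 38.0 at d35. Its d15 libraries lay above all others, its d35 libraries overlapped the naive ones, and the log2 difference of d15 against naive was 0.46 ± 0.10 (SE), adjusted p = 0.039. Neither call held with every library left out in turn. Both were lost without naive 2, without d15 A and without d15 B, and Zfp24 also without naive 1. Without d35 3, which enters only the estimate of spread, 7 members were called, 3 higher and 4 lower. The median over members fell to 0.022 without naive 2 and was 0.056 without d15 A.

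By day 35 few members were called higher than in naive macrophages. Of the 240 genes, 10 were lower and 3 higher, 5.42% in all beside 16.2% of all genes tested (9.86% higher and 6.32% lower). Neither the lower nor the higher share was above that of all genes. At an unadjusted p under 0.05 there were 31 members lower and 6 higher, beside 1628 and 2026 of the 11273 genes. The median log2 difference was -0.047 over the members and -0.0022 over all genes, with 93 members above 0 and 147 below. The log2 falls of the called genes ran from -0.31 to -0.60. The edgeR test called 3 members higher and 10 lower, beside 1084 and 676 of all genes. DESeq2 called 4 and 16, beside 1355 and 1057 of all genes. The count was 2 without naive 2 and 2 without naive 3, 8 without naive 1 or d15 B, 6 without d35 1 or d35 3, and 21 without d35 2. The median was -0.087 without naive 2 and -0.033 without d35 3.

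Among the genes that fell was Zfp62 (chromosome 11, 49203292 to 49218816), a protein with 25 C2H2 matches. It stood at 58.6, 55.1 and 64.6 in naive, 60.7 and 58.5 at d15 and 46.8, 45.2 and 41.7 at d35. Naive and d15 libraries overlapped and the d35 libraries lay below both, with a log2 difference against naive of -0.40 ± 0.08 (SE), adjusted p = 0.0124. It was the only call of this comparison that held under all 19 other settings. Zfp367 (chromosome 13, 64133018 to 64153202), first described in erythroid cells, stood at 23.3, 23.8 and 28.8 in naive, 31.7 and 28.9 at d15 and 17.2, 18.8 and 17.8 at d35. Its d35 libraries were the lowest and its d15 libraries the highest of the 8, its difference of d35 against naive was -0.47 ± 0.11 (SE), adjusted p = 0.0168, and the call was lost only without naive 3. Zfp599 stood at 12.5, 10.96 and 11.2 in naive, 13.5 and 14 at d15 and 8.55, 8.57 and 8.51 at d35, with the d35 libraries close together below the rest, and its log2 difference against naive was -0.39 ± 0.11 (SE), adjusted p = 0.0354. That call held in 9 of 19 other settings and was lost without any 1 of the 8 libraries. Zfp810 stood at 39.1, 48.3 and 44.0 in naive, 44.3 and 47.1 at d15 and 35.3, 31.7 and 24.7 at d35. Its d35 libraries were also below all others, with -0.52 ± 0.13 (SE), adjusted p = 0.0238, a call that held in 16 of 19.

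Also lower at d35 were Zfp451, Zfp217, Zfp292 and Zfp512b. Zfp451 (chromosome 1, 33761545 to 33814595), a ligase that attaches SUMO chains, stood at 80.0, 73.3 and 73.7 in naive, 73.9 and 70.2 at d15 and 62.7, 61.6 and 51.2 at d35. Its log2 difference was -0.37 ± 0.09 (SE), adjusted p = 0.0216. Zfp217 (chromosome 2, 170108643 to 170148103), a co-repressor partner whose human counterpart is amplified in breast cancer, stood at 9.67, 12.02 and 11.3 in naive, 8.40 and 9.08 at d15 and 6.82, 8.60 and 5.90 at d35, and its d15 and d35 values overlapped. Its log2 difference was -0.57 ± 0.15 (SE), adjusted p = 0.0282. Zfp292 (chromosome 4, 34803113 to 34882960), a large nuclear protein, went from 55.9, 66.3 and 56.4 in naive libraries to 46.7, 51.3 and 45.7 at d35, a log2 difference of -0.31 ± 0.09 (SE), adjusted p = 0.04. Zfp512b (chromosome 2, 181582103 to 181592803) was lower than naive at both times in every library, at 20.7, 18.4 and 19.6 in naive, 12.3 and 13.97 at d15 and 15.7, 14.7 and 10.6 at d35, and passed only at d35 with -0.51 ± 0.14 (SE), adjusted p = 0.0381. The differences of Zfp451, Zfp292 and Zfp512b did not pass the test after a correction for transcript length, and these calls held in 15, 9 and 10 of the 19 other settings. That of Zfp217 held in 15.

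The other called genes that fell at d35 were Zfp110 and Zfp146. Zfp110 (chromosome 7, 12834761 to 12850577) encodes NRIF, a partner of the p75 neurotrophin receptor. It stood at 84.9, 77.0 and 78.1 in naive, 71.8 and 81.5 at d15 and 63.5, 68.2 and 57.4 at d35, with -0.34 ± 0.09 (SE), adjusted p = 0.0261, and the call held in 14 of 19 other settings. Zfp146 (chromosome 7, 30161269 to 30169750), a protein made almost wholly of fingers, stood at 7.92, 7.47 and 6.203 in naive, 5.53 and 4.90 at d15 and 4.29, 5.77 and 3.41 at d35. Its d15 and d35 values overlapped, its log2 difference was -0.60 ± 0.18 (SE), adjusted p = 0.0437, and the call held in 9 of 19 other settings. It was lost with edgeR, with the replicate block, with only the groups compared and without each library but d35 2.

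The 3 genes that rose at d35 were Zfp207, Zfp658 and Zfp874a. Zfp207 (chromosome 11, 80383279 to 80405733) stood at 195, 174 and 212 in naive, 240.4 and 228 at d15 and 239, 257 and 255 at d35. All tumor libraries lay above all naive ones, and the log2 difference of d35 against naive was 0.37 ± 0.08 (SE), adjusted p = 0.0141. That call was lost only without naive 2. Zfp658 was intermediate at d35, with 0.55 ± 0.15 (SE), adjusted p = 0.0338, held in 14 of 19 other settings. Zfp874a (chromosome 13, 67424549 to 67451624) stood at 16.4, 11.4 and 14.97 in naive, 20.01 and 21.1 at d15 and 18.3, 21.01 and 19.9 at d35, with 0.46 ± 0.13 (SE), adjusted p = 0.041. Its call held in 10 of 19 other settings and was lost with the replicate block, with only the groups compared and without each library but naive 1. Of its 50-base stretches 16.3% also occur in another gene, most often Zfp874b, so its reads may have been shared between the copies.

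**Figure D2:**
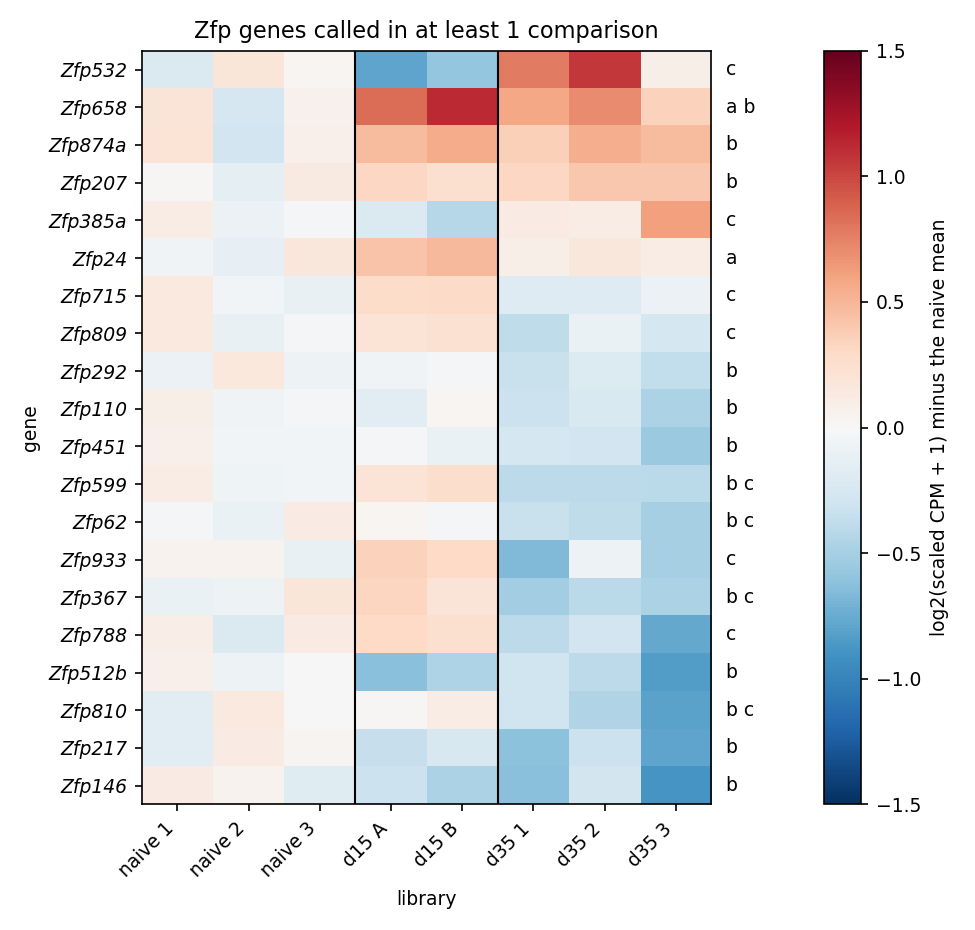
Heat map, red for higher and blue for lower, of the difference of each of the 8 libraries from the naive mean for the 20 Zfp genes called in any comparison, on the log2(value + 1) scale, with letters marking the comparison of the call (a, d15 against naive; b, d35 against naive; c, d35 against d15). All 3 d35 libraries lie below 0 and both d15 libraries at or above it for Zfp599 and Zfp810, and Zfp658 lies above 0 in all 5 tumor libraries.

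Between the early and the late time 8 members were lower and 2 higher at d35, 4.17% of members beside 7.39% of all genes tested (4.59% higher and 2.8% lower). The median log2 difference of d35 against d15 was -0.12 over the members and -0.0026 over all genes, with 80 members above 0 and 160 below. This comparison shares libraries with the other 2. Many calls were lost when 1 library was left out, 5 of the 10 without d35 3. The count was 6 without naive 3 or d35 3. Without d15 A or d15 B that group holds 1 library, and most calls were lost. Such a loss does not show that a call rested on the library left out. The differences kept their direction under all settings tried, from -0.79 to -0.66 for Zfp367 and from 0.44 to 0.71 for Zfp385a. With 1 d15 library left out, the other is assumed to vary as the naive and d35 libraries do.

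Zfp62, Zfp367, Zfp599 and Zfp810 were lower at d35 against d15 as well as against naive. Their log2 differences of d35 against d15 were -0.41, -0.73, -0.63 and -0.58, with adjusted p-values of 0.026, 0.00515, 0.0128 and 0.0343. A further 4 genes were lower than at d15 without passing the test against naive. Zfp715 (chromosome 7, 43296197 to 43313294) stood at 57.3, 50.2 and 47.9 in naive, 62.5 and 63.0 at d15 and 44.9, 45.02 and 48.5 at d35, a log2 difference between the times of -0.44 ± 0.09 (SE), adjusted p = 0.0206. Zfp788 (chromosome 7, 41633203 to 41651530) stood at 8.66, 6.81 and 8.82 in naive, 10.1 and 9.72 at d15 and 5.92, 6.41 and 4.33 at d35, with -0.75 ± 0.18 (SE), adjusted p = 0.0294. Zfp933 (chromosome 4, 147822986 to 147848366) stood at 6.57, 6.58 and 5.74 in naive, 8.27 and 7.96 at d15 and 3.59, 5.92 and 4.14 at d35, with -0.74 ± 0.19 (SE), adjusted p = 0.037. In all 3 genes the d15 libraries were the highest of the 8.

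The fourth was Zfp809, which binds the primer-binding site of murine leukemia viruses and recruits silencing to them in embryonic cells. It stood at 41.9, 34.8 and 37.0 in naive, 43.7 and 44.6 at d15 and 28.8, 35.1 and 31.4 at d35. The d15 libraries were the highest and 1 d35 library overlapped the naive range. The log2 difference of d35 against d15 was -0.47 ± 0.11 (SE), adjusted p = 0.0305, and against naive -0.25 ± 0.10 (SE), adjusted p = 0.114.

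In both genes that rose between the times the d15 libraries were the lowest of the 8. Zfp532, whose human counterpart works with ZMYND8 and is a fusion partner of NUTM1 in NUT carcinoma, stood at 5.67, 7.74 and 6.91 in naive, 3.47 and 4.17 at d15 and 12.3, 15.1 and 7.20 at d35. The d35 libraries spread widely, with the lowest inside the naive range, and the log2 difference between the times was 1.33 ± 0.25 (SE), adjusted p = 0.0114. Of its 50-base stretches 36.7% recur in another gene, so part of its reads could belong elsewhere. Zfp385a (chromosome 15, 103313895 to 103340093), a p53 target and RNA-binding protein also called Hzf, stood at 54.9, 47.8 and 49.7 in naive, 43.7 and 37.4 at d15 and 55.4, 54.9 and 78.2 at d35. A single d35 library was far above the others, and its difference between the times was 0.60 ± 0.15 (SE), adjusted p = 0.0333. Neither gene passed the test of d15 or of d35 against naive.

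**Figure D3:**
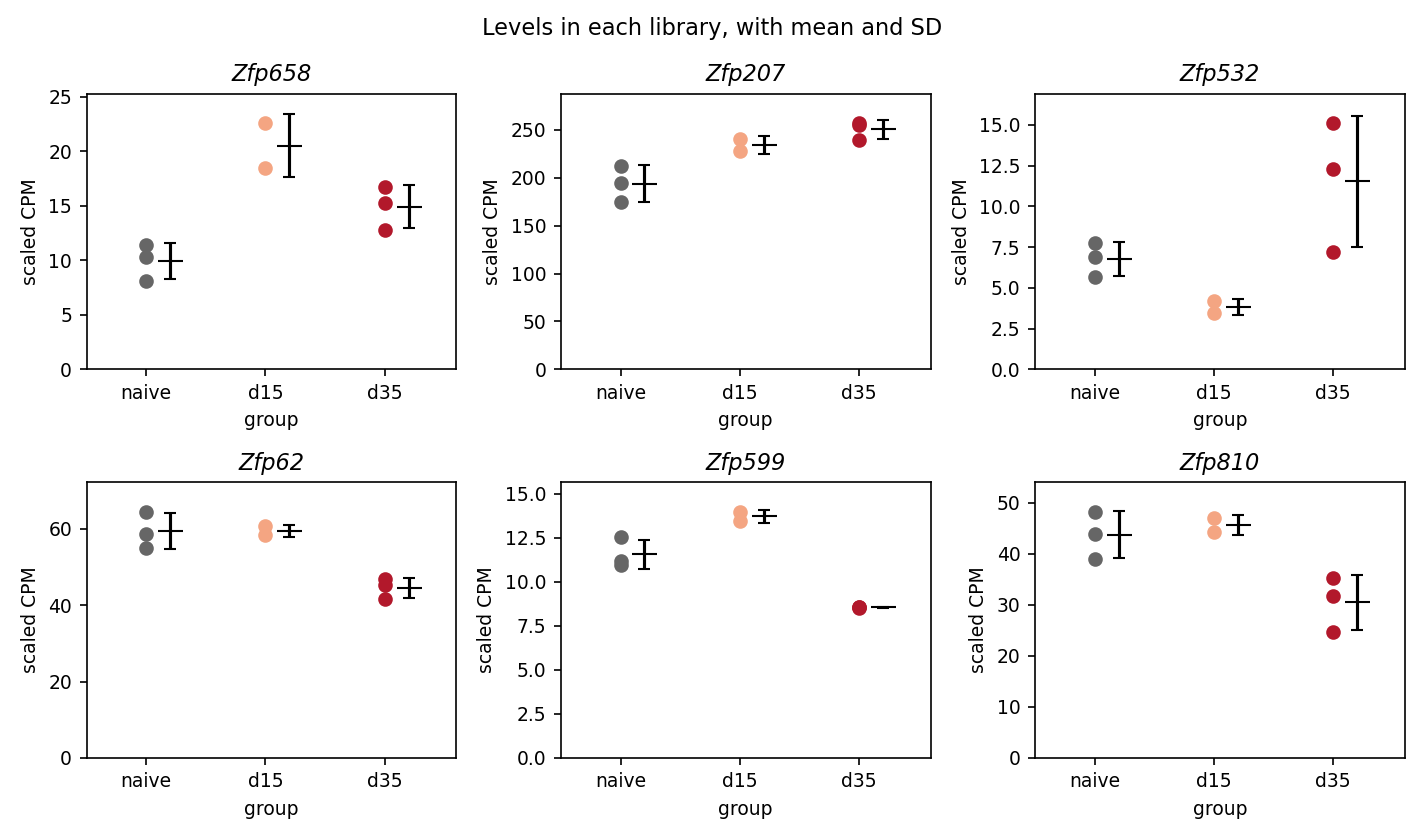
Scaled CPM of Zfp658, Zfp207, Zfp532, Zfp62, Zfp599 and Zfp810 by group, with 1 point per library and the group mean and SD drawn beside them. Zfp658 is highest at d15, Zfp207 is higher in both tumor groups than in naive libraries, and Zfp62, Zfp599 and Zfp810 are lowest at d35.

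Zfp809, Zfp599 and Zfp810 are neighbours on chromosome 9, where Zfp809 (22225714 to 22243354, forward strand) is followed after 4076 bases by Zfp599 (22247430 to 22259895, reverse strand) and after a further 16853 bases by Zfp810 (22276748 to 22307648, reverse strand). All 3 were lower at d35 against d15, with differences of -0.47, -0.63 and -0.58 on the log2 scale. The promoter windows of Zfp809 and Zfp810 are shown because these neighbours were lower together. They run from 250 bases before to 50 after the RefSeq start (GRCm38.p6), and the window of Zfp809 is chr9:22225453-22225752 on the forward strand and that of Zfp810 chr9:22307589-22307888 on the reverse strand. Capitals mark the short words searched on both strands, which were AAGATGG for YY1, GGGCGG for the GC box, CCAAT for NF-Y, CCGGAAG for ETS factors and the word for ZNF143 that is in capitals in the windows of Zfp692 and Zfp933 printed with that word.
Zfp809: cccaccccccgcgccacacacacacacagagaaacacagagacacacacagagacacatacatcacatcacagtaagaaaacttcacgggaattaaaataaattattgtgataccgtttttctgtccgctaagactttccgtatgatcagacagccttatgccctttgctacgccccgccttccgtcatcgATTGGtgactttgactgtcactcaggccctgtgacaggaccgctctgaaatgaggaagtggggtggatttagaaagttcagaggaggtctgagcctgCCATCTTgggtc
Zfp810: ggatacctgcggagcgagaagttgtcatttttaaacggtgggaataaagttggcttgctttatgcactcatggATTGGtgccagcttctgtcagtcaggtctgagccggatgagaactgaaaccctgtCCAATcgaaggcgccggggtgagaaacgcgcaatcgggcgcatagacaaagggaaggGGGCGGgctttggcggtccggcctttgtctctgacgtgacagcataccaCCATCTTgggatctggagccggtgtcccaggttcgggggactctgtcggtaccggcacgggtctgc
Each window held the CCAAT word and, close to the start site, the YY1 word in reverse (CCATCTT). A YY1 word was found in 16 of the 206 member promoters in the RefSeq table, 7.77%, beside 7.55% of the 9047 promoters of tested genes and 6.46% of all 27025 promoters. A CCAAT word was found in 47.1% of member promoters, 38.9% of those of tested genes and 37.8% of all.

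The 240 proteins fell into 90 with a KRAB match in their translated GENCODE coding sequence and 150 without. The match is a sequence pattern and can miss divergent boxes. KRAB members had a median of 12 fingers and the others 9. The median log2 difference of d35 against d15 was -0.20 in the KRAB members, beside -0.059 in the other members, and 76 of 90 against 84 of 150 were below 0. Among KRAB members 5 were called lower and 0 higher (limma; 16 lower and 0 higher at an unadjusted p under 0.05; edgeR 5 and 0, DESeq2 6 and 0). That is 5.56% of KRAB members, beside 7.39% of all genes called and 2.8% called lower. At an unadjusted p under 0.05, 1188 of all 11273 genes were lower and 1321 higher. Among the others 3 were called lower and 2 higher, or 3.33%.

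Against naive the KRAB members' median log2 difference was 0.12 at d15 and -0.087 at d35, and that of the other members 0.034 and -0.037. The difference between the classes was not tested. Only Zfp658 was called at d15 among KRAB members, and at d35 against naive 1 was called higher and 3 lower. That is 1.11% and 4.44% of KRAB members, beside 4.37% and 16.2% of all genes tested. The difference between the KRAB and the other members' medians for d35 against d15 ran from -0.16 to -0.074 over the settings tried. It was smaller after a correction for GC content, with medians of -0.11 for KRAB members and -0.0049 for the others. KRAB transcripts had less G and C, a median of 41.3% beside 46.8% in the other members and 50.2% over all genes tested. Among the members below a GC content of 43.6% the medians of d35 against d15 were -0.20 for 60 KRAB members and -0.13 for 60 others, and above it -0.20 for 30 and 0.026 for 90.

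**Figure D4:**
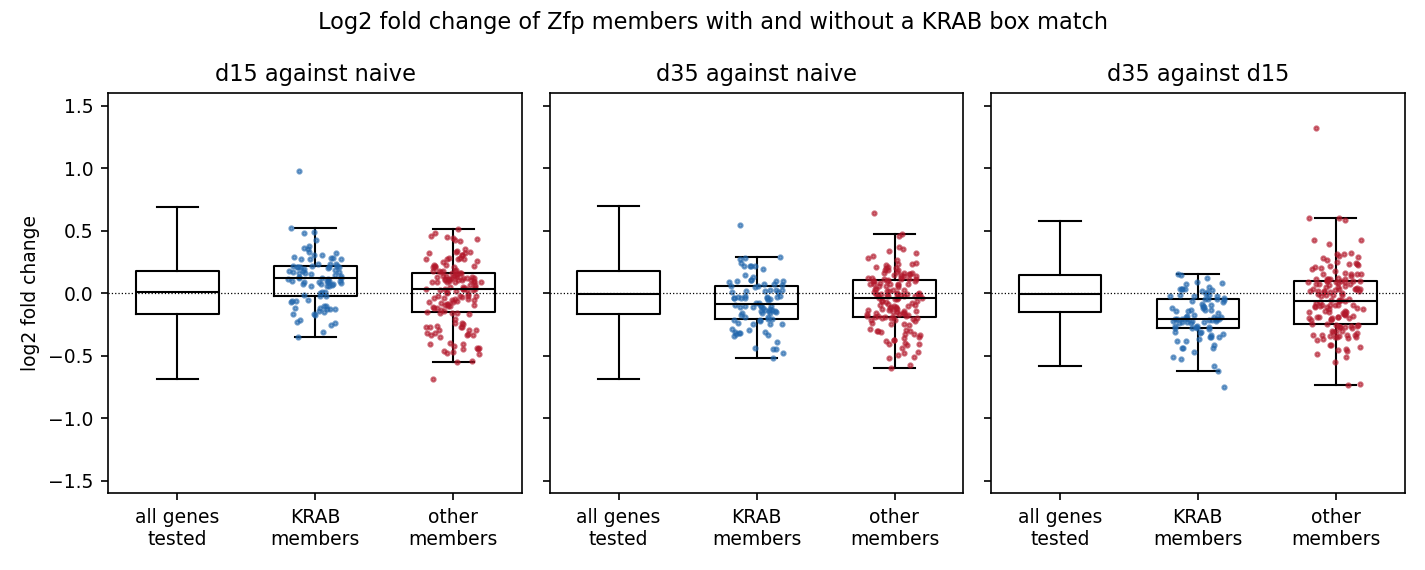
Log2 fold change of all genes tested, of the 90 members with a KRAB match and of the 150 other members, in the 3 comparisons, with 1 point per member. Boxes give the median and quartiles and whiskers the farthest values within 1.5 box lengths, and values of all genes beyond them are not drawn. The KRAB members lie mostly below 0 for d35 against d15, with a median of -0.20 beside -0.059 in the others, and the classes overlap widely.

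Differences from naive went with transcript length, in Zfp genes as in all genes. Member transcripts were somewhat longer than most, with a median of 3915 bases beside 3424 over all genes tested, from 1355 in Zfp637 to 13834 in Zfp704. In the shortest of 5 length bins over all genes (243 to 2024 bases) the median log2 difference of d15 against naive was 0.18 over all genes and 0.11 over the 14 members in it. In the longest (5261 to 123179 bases) it was -0.14 over all genes and -0.10 over 59 members. For d35 against naive the same bins gave 0.19 and -0.16 over all genes and 0.069 and -0.18 over members. Between d35 and d15 length made no such slope, with 0.012 and -0.013 over all genes, and the members were below 0 in each of the 5 bins, from -0.063 to -0.18.

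Across the 240 members, which share all libraries and are not independent replicates, Pearson's r of log2 transcript length with the difference was -0.29 for d15 against naive, -0.30 for d35 against naive and 0.023 for d35 against d15. Across 11271 genes it was -0.37, -0.29 and -0.041. Pearson's r of GC content with the difference was -0.33 over members and -0.095 over all genes for d15 against naive, -0.017 and 0.040 for d35 against naive, and 0.30 and 0.11 for d35 against d15. A correction for GC content took Zfp810, Zfp62, Zfp715 and Zfp933 out of the calls of d35 against d15, while the length correction took out none of those 10. Their differences kept their direction, and the smallest over all settings tried were -0.44, -0.30, -0.34 and -0.57. Of the 13 calls of d35 against naive the length correction removed the 3 named above and the GC correction Zfp292.

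**Figure D5:**
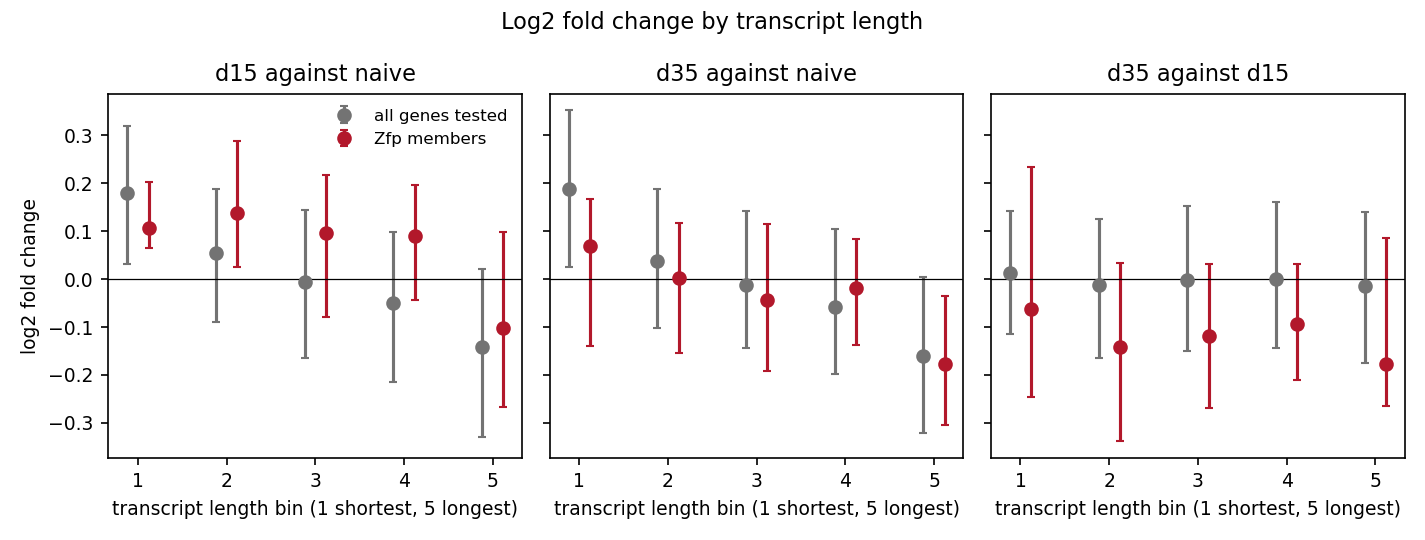
Median log2 fold change (point) and quartiles (bar) in 5 bins of transcript length for all genes tested and for the Zfp members, in the 3 comparisons. For d15 and d35 against naive the medians of all genes descend from short to long transcripts and the members are lowest in the longest bin, and for d35 against d15 all genes stay near 0 while the members lie below 0 in every bin.

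Some members were also put on lists by role. Of 12 members that act on RNA or the cytoskeleton, ubiquitin or SUMO rather than on promoters, Zfp207 rose and Zfp451 fell at d35 against naive and Zfp385a rose between the times. That is 16.7% at d35 against naive, beside 16.2% of all genes tested, and 8.33% for d35 against d15, beside 7.39%. Zfp638 stood at 128 ± 13.5 in naive, 131 ± 10.2 at d15 and 116 ± 13.5 at d35 (SD), and Zfp106, an RNA-binding protein of motor neurons and muscle, at 75.6 ± 2.35, 63.0 ± 6.40 and 67.0 ± 10.4, with no call in either. Of 25 members listed as general regulators, a loose class, Zfp24 rose at d15, Zfp110, Zfp292 and Zfp217 fell at d35 against naive, and Zfp532 rose between the times. These are 4%, 12% and 4% in the 3 comparisons beside 4.37%, 16.2% and 7.39% of all genes. The most abundant of that class was Zfp710, which stood at 98.2, 83.3 and 77.9 in naive, 73.3 and 55.7 at d15 and 76.1, 79.4 and 83.8 at d35 and did not pass at d15, with -0.42 ± 0.13 (SE), adjusted p = 0.0738. Zfp148 and Zfp384 had no call either, with log2 differences of d35 against naive of -0.04 and 0.03. Zfp143, chosen after its values were seen because its human counterpart names a promoter word searched here, stood at 29.4, 29.3 and 33.2 in naive, 27.5 and 21.1 at d15 and 34.1, 30.7 and 33.6 at d35. Of 5 members known to silence retroelements or imprinted genes only Zfp809 passed, between d35 and d15, which in so small a list is 20% beside 7.39% of all genes. Zfp445, which guards imprints in the embryo, stood at 44.4 ± 4.27, 36.3 ± 6.64 and 42.4 ± 2.62 in the 3 groups (SD), and Zfp568, which represses a placental Igf2 transcript, at 13.2 ± 2.39, 12.3 ± 2.92 and 13.5 ± 2.72. Zfp961 stood at 28.4 ± 2.18, 35.02 ± 4.05 and 27.0 ± 5.90.

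The partners through which KRAB proteins work were measured too. Of 21 co-repressor genes tested, 2 were lower at d15 than in naive libraries, 1 was higher and 1 lower at d35 against naive, and 1 was higher between the times. These are 9.52%, 9.52% and 4.76% of the list, beside 4.37%, 16.2% and 7.39% of all genes tested. Trim28 stood at 66.6, 57.3 and 56.4 in naive, 59.8 and 50.5 at d15 and 52.5, 51.4 and 62.9 at d35, and Setdb1 at 55.6 ± 6.00, 57.0 ± 2.84 and 53.3 ± 4.46. Neither passed a test, with log2 differences of d35 against d15 of 0.01 and -0.10. Atf7ip, which stabilises SETDB1, fell from 90.0 ± 6.97 to 65.2 ± 2.27 at d15 and was 71.7 ± 5.68 at d35, with log2 differences against naive of -0.46 ± 0.09 (SE), adjusted p = 0.0291, and -0.32 ± 0.08 (SE), adjusted p = 0.029. Chd4, the motor of the NuRD complex, was lower at d15, at 63.6 and 65.2 beside 94.5, 84.6 and 88.7 in naive libraries, with -0.46 ± 0.09 (SE), adjusted p = 0.0269. The transcripts of Atf7ip (8059 bases) and Chd4 (6697 bases) belong to the longest length bin. In that bin the median log2 difference against naive over all genes was -0.14 at d15 and -0.16 at d35. Resf1, a partner of SETDB1 in retroelement silencing, was higher at d35 at 131, 137 and 158 beside 113, 111 and 115 in naive and 109.8 and 108 in d15 libraries. Its log2 difference of d35 against naive was 0.32 ± 0.08 (SE), adjusted p = 0.0213.

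Zfp36l2, another protein that binds AU-rich elements, stood at 944, 765 and 726 in naive, 622 and 578 at d15 and 479.7, 698 and 884 at d35 and passed no test. Of 16 CCCH and related RNA-binding genes tested, Zfp36l2 among them, 3 fell at d35 against naive, which were Zc3h4, Zc3h6 and Rc3h2. That is 18.8% beside 6.32% of all genes called lower and 16.2% called in either direction, and edgeR called 2 genes of the list. Rc3h2, the roquin paralog that destabilises inflammatory mRNAs, went from 40.9, 46.4 and 39.1 to 32.4, 31.4 and 26.0, a log2 difference of -0.48 ± 0.10 (SE), adjusted p = 0.0148.

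The word bound by ZNF143 was rare, and the members that carried it are shown for that reason. It was found in 6 of 206 member promoters (2.91%), beside 0.807% of the promoters of tested genes and 0.30% of all. The windows below are of GRCm38.p6, on the strand of the gene, with the word in capitals and 20 bases on each side. They lie at chr7:24081855-24081905 (Zfp180), chr7:12881143-12881193 (Zfp128), chr11:58307001-58307051 (Zfp692), chr8:111643398-111643448 (Zfp1), chr4:147848420-147848470 (Zfp933) and chr13:67500522-67500572 (Zfp58).
Zfp180: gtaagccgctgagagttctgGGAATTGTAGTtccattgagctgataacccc
Zfp128: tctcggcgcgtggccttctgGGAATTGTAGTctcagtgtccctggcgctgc
Zfp692: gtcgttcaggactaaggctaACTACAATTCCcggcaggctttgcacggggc
Zfp1: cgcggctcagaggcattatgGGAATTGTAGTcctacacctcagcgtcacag
Zfp933: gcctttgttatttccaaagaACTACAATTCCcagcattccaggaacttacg
Zfp58: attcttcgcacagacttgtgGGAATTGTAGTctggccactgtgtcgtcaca
Of these 6 genes only Zfp933 passed a test, as given above. Among the others, Zfp180 stood at 34.4 ± 2.41 in naive, 37.1 ± 2.23 at d15 and 32.7 ± 4.10 at d35, and Zfp692 at 11.8 ± 1.77, 8.37 ± 0.408 and 11.6 ± 1.46. A match is a description of the letters and not of binding.

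Outside the 240, 69 of the other 98 Zfp genes were abundant enough to be tested. Zfp449, Zfp354c and Zfp438 were lower and Zfp467 higher at d35 against naive, and Zfp2 was lower and Zfp467 higher at d35 against d15. That is 5.80% and 2.90% of the 69, beside 16.2% and 7.39% of all genes tested. Zfp467 stood at 2.505, 1.27 and 1.96 in naive, 1.09 and 1.74 at d15 and 3.14, 4.06 and 3.99 at d35, with 0.72 ± 0.21 (SE), adjusted p = 0.0406 against naive. The edgeR test called none of the 69 higher at d35 against naive, Zfp467 included, where limma called 1 and 3 were higher at an unadjusted p under 0.05 (DESeq2 called 1). In the same comparison edgeR called 2 lower, where limma called 3 and 8 were lower at an unadjusted p under 0.05 (DESeq2 called 3). Zfp354c was low, at 2.13, 1.07 and 1.47 in naive and 0.434, 0.411 and 0.458 in d35 libraries, with as few as 12 reads in a library. Zfp438 passed narrowly, with a limma adjusted p = 0.0497. The authors' deposited table of d15 against naive listed all 240 members, and 0 of them had a false discovery rate under 0.05, beside 389 of its 10778 genes. In the authors' deposited table Zfp658 came closest, with a log2 difference of 1.02 and a false discovery rate of 0.0685, and 233 of the members had the sign of the limma difference. Both results come from the same series, so the shared signs are not independent support.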

How the data were processed

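Libraries were made from 1 ng of total RNA with SMART-Seq v4 and sequenced on a NextSeq, per the labels' protocols. STAR 2.5, edgeR and mm10 are named in the submitters' processing notes. How reads were counted, on which annotation and whether by strand, is not given in the labels or file headers. The deposited values are a signal in scaled CPM, in which 0.5 had been added to each gene's reads, and all came back as whole reads within 0.001. They were analysed as log2(value + 1) with limma 3.58.1 (trend, R 4.3.3) on all 8 libraries. Genes with at least 1 in at least 2 libraries were tested, 11273 in all, with Benjamini-Hochberg adjustment and a threshold of 0.05. A log2 difference on this scale understates the change of low genes. The authors' deposited table of d15 against naive gives, per the file headers, a log2 fold change, a likelihood-ratio score, a p-value and a false discovery rate per gene. On the recovered reads edgeR 4.0.16 and DESeq2 1.42.0 were run as alternatives. Over all genes edgeR called 215 higher and 202 lower for d15 against naive, 1084 and 676 for d35 against naive and 526 and 301 for d35 against d15. Lengths, GC content and coordinates came from GENCODE M21 (GRCm38), and promoters from RefSeq. KRAB and finger matches came from translated GENCODE coding sequence.

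Members and lists were chosen with earlier results of these data known. Named in the text, by rule, were the called members with the smallest adjusted p (up to 12 per comparison), the 5 highest and 3 lowest members per kilobase, those nearest the minimum of 3, the longest and the shortest, up to 4 of each role list, and called genes of the related lists. Zfp146 and the genes outside the 240 were named after their values were seen. The GC correction was added after the data had been seen. The fits were tested on simulated data. A further gene of the monocyte list is not reported here and stays out of its sums.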

Additional observations from a re-analysis of the deposited data

Results flagged for a closer look

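For 10 members the d15 and the d35 libraries, each set against the same naive libraries, differed by the test of d35 against d15 (limma). The value given first is that difference on the log2 scale. For Zfp367 it was -0.73, from 0.26 at d15 and -0.47 at d35 against naive. Zfp532 gave 1.33, from -0.68 and 0.64, the only one of the 10 with an absolute value above 1. Zfp599 gave -0.63 (0.23 and -0.39) and its neighbours on chromosome 9, Zfp809 and Zfp810, gave -0.47 (0.22 and -0.25) and -0.58 (0.06 and -0.52). For Zfp715 it was -0.44 (0.28 and -0.16), for Zfp788 -0.75 (0.27 and -0.48) and for Zfp933 -0.74 (0.32 and -0.41). Zfp62 gave -0.41 with almost no difference at d15 (0.01 and -0.40). Zfp385a gave 0.60 (-0.32 and 0.28), the other gene of the 10 that was higher at d35 than at d15.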

How the results depend on the processing

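For d15 against naive the 2 calls became 7 with only the 2 groups in the fit and 14 with DESeq2. For d35 against naive the 13 calls became 20 with DESeq2 and 8 with the replicate number as a block (1 higher and 7 lower), though same-numbered libraries deviated with correlations of only -0.00708, -0.0456 and 0.147 and share no more than a number. No paired analysis was possible for d15 because its columns carry other numbers than its titles. For d35 against d15 the 10 calls became 4 with only those groups and 16 with DESeq2, and the members' median became -0.053 after the GC correction. DESeq2 also called more of all genes, 686 higher and 765 lower, 1355 and 1057, and 845 and 523 in the 3 comparisons. With limma these were 267 and 226, 1112 and 712, and 517 and 316. The length correction took the members' correlation with length to 0.0731 for d15 and 0.121 for d35 against naive, as it is built to remove it. Leaving out each library in turn gave 0 to 7, 2 to 21 and 1 to 13 calls in the 3 comparisons. It gave medians of 0.0217 to 0.0999, -0.0871 to -0.0330 and -0.117 to -0.0915, and length correlations of -0.292 to -0.248, -0.359 to -0.176 and -0.0632 to 0.124. Zfp36 at d15 against naive turned to -0.012 with the length correction, -0.074 with edgeR and -0.083 with DESeq2, and ran from -0.36 (without naive 1) to 0.256 (without naive 2) with each library left out. The cause was not tested. Each of the 25 calls of single members was recomputed under 18 or 19 other settings, and of these values 341 kept the call, 122 lost it and none changed direction. For the called genes of related lists 292 kept the call and 134 lost it, and 21 of their 23 calls were lost in at least 1 setting. Each member had at least 87 reads in every library. How far the read number or the number of libraries limits the precision was not tested.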

Other observations

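Members were unevenly spread over the genome, with 54 of 240 on chromosome 7, 37 on chromosome 17, 24 on chromosome 13 and 16 on chromosome 9. The 24 members on chromosome 13 had a median log2 difference of d35 against d15 of -0.25, and 21 of them were below 0, beside 160 of all 240. Of these 24, 1 was called, or 4.17%, beside 7.39% of all genes. The median differences of the other chromosomes with at least 12 members ran from -0.19 on chromosome 8 to 0.086 on chromosome 2, where 9 of 12 members were above 0. Median GC content was 39.1% for the members on chromosome 13, 46.9% for those on chromosome 2 and 43.6% for all members. The part of GC content in these medians was not tested. Of 14 Klf and Sp genes tested, 7.14%, 21.4% and 21.4% were called in d15 against naive, d35 against naive and d35 against d15, beside 4.37%, 16.2% and 7.39% of all genes. Klf9, a glucocorticoid-responsive repressor, had the largest difference at d15, at 18.6, 17.8 and 19.4 in naive, 42.6 and 78.5 at d15 and 28.0, 31.1 and 36.3 at d35. Its log2 difference of d15 against naive was 1.59 ± 0.21 (SE), adjusted p = 0.00521. Klf10, a TGF-beta-responsive factor, was lower at d35, at 389, 434 and 378 beside 515, 515 and 544 in naive and 506 and 533 in d15 libraries, with -0.39 ± 0.07 (SE), adjusted p = 0.00739. Sp4 was lower at d35 as well, with -0.43 ± 0.10 (SE), adjusted p = 0.017. Of 35 Zbtb genes tested, 4 were called lower at d35 against naive, and 1 was called each way at d15. That is 11.4% at d35, beside 16.2% of all genes called and 6.32% called lower, and 5.71% at d15, beside 4.37%.

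The median member shared 0.913% of its 50-base stretches with another gene, 78 shared none, 61 shared more than 10% and 9 more than 50%. Zfp367 shared 15.9%, and Zfp62, Zfp207, Zfp658, Zfp451 and Zfp810 shared none. The members varied more between naive libraries than genes did in general, with a median SD of 0.149 beside 0.113 on the log2 scale, and about as much at d35 (0.145 and 0.140). Members and all genes were not matched for level, on which this spread can depend. A GC box was found in 47.6% of member promoters beside 64.3% of those of tested genes, and an ETS word in 23.3% beside 19.4%.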
